A study of Mus musculus with 6 samples.

Results

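The genes described here are 35 genes of cholesterol and fatty acid synthesis, taken by symbol from the 46983 genes in the deposited expression table. They comprise 18 enzymes of cholesterol synthesis, 6 genes of sterol sensing and transport, and 11 enzymes of fatty acid synthesis, elongation and desaturation. Expression was measured by bulk RNA-seq in 6 libraries of mouse splenic B cells, 3 labelled WT and 3 labelled KO, here *Hif1a* KO. All cells were C57BL/6 and had been cultured until day 3 under IgA class switching conditions, with 5 μg/ml LPS and 10 ng/ml each of BAFF, TGF-β and IL-5. The study made *Hif1a* KO mice by crossing *Hif1a* f/f mice with *Mb1*-cre mice, in which cre recombinase is expressed throughout the B-cell lineage. WT mice were littermates that were either *Hif1a* f/+ and cre-positive or *Hif1a* f/f and cre-negative, so a WT library may carry cre or floxed alleles, and the labels do not tell these apart. Neither the age of the mice behind these libraries nor the origin of the replicates from separate animals or cultures is stated in the labels, so p-values measure the spread between these samples, which may be technical.

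Cells make cholesterol from acetyl-CoA through mevalonate, farnesyl pyrophosphate, squalene and lanosterol, and several steps from squalene onwards use molecular oxygen. Fatty acid synthesis starts from the same acetyl-CoA, which is carboxylated, built into palmitate, elongated and desaturated. Both sets of enzymes are transcribed under SREBP transcription factors. When sterols are scarce, SCAP escorts SREBP from the endoplasmic reticulum to the Golgi for cleavage, and when sterols are plentiful, INSIG proteins hold SCAP back. Activated B cells that grow and expand their membranes draw on both pathways. HIF-1α is a transcription factor stabilised at low oxygen and during B-cell activation, and the comparison of WT with *Hif1a* KO cells asks how these genes are expressed without it.

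The promoters of the members were searched for 4 motifs that bear on this regulation, and 4 of them are printed here. They are the promoter of *Hmgcs1*, the only member with a match to the SREBP site, and those of *Insig1*, *Hsd17b7* and *Sc5d*. These hold an E-box and were picked because their genes stand out below. Each sequence runs 5′ to 3′ on the gene's strand, from 250 to 51 bases before the start annotated by RefSeq on GRCm38.p6, and capitals mark matches to the SREBP site, the NF-Y box or the E-box.
*Hmgcs1*, chr13:119690101-119690300, plus strand: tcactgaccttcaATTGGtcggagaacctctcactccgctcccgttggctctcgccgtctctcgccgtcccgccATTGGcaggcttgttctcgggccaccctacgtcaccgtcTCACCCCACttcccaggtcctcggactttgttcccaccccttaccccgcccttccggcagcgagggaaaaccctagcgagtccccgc
*Insig1*, chr5:28071162-28071361, plus strand: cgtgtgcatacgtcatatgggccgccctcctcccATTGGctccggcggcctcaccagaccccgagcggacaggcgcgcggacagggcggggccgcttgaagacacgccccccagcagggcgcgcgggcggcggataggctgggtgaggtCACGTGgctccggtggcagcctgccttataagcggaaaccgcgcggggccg
*Hsd17b7*, chr1:169969256-169969455, minus strand: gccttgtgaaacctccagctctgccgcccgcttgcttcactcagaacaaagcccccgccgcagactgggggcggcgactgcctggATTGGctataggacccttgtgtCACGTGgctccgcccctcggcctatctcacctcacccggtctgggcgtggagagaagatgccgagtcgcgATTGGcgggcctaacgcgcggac
*Sc5d*, chr9:42264351-42264550, minus strand: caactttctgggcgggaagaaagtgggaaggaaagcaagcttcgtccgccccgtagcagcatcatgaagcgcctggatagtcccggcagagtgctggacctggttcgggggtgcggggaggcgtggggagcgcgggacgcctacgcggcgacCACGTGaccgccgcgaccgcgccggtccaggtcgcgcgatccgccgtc
RefSeq windows of 300 bases, from 250 before to 50 after a start, were at hand for 28 of the 35 members, and all motifs were searched exactly and on both strands. The SREBP site, TCACNCCAC, was found in 1 of the 28 members (3.6%) against 1.4% of all 27025 genes with a window, and in *Hmgcs1* it begins 137 bases before the start. The NF-Y box, CCAAT, binds the factor that acts beside SREBP at sterol genes, and reads ATTGG where it lies on the other strand, as in the printed sequences. It was found in 23 of 28 members (82.1%) against 41.1% of all genes, and in 14 of the 15 cholesterol enzymes with a window. The E-box, CACGTG, was found in 6 members (21.4%) against 8.1% of all genes. Besides the printed ones it was found in *Dhcr7*, *Elovl5* and *Scap*. The expression of these genes and of *Insig1* overlapped between WT and *Hif1a* KO, while that of *Hsd17b7* and *Sc5d* did not. The E-box was not found in *Nsdhl* or *Insig2*, whose expression did not overlap either. The hypoxia response core, ACGTG or GCGTG, which an E-box always contains, was found in 18 members (64.3%) against 46.7% of all genes. Counted over windows, since some genes have several starts, the shares among members and among all windows were 2.6% and 1.2% for the SREBP site, 63.2% and 37.4% for the NF-Y box, 18.4% and 7.2% for the E-box, and 55.3% and 43.8% for the hypoxia response core. These matches are descriptions of sequence and were not tested.

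The libraries held 25.0 to 37.2 M reads, as read back from the FPKM values (fragments per kilobase of gene length, scaled to library depth). *Hif1a* itself was at 36.5, 49.8 and 45.8 FPKM in WT replicates 1, 2 and 3 and at 46.5, 45.6 and 52.8 FPKM in *Hif1a* KO replicates 1, 2 and 3. These values cover all exons of the gene and do not check the removal of the floxed part. The library of WT replicate 1 stood apart from the other WT libraries. On a principal component that held 54.7% of the variance, WT replicates 2 and 3 were at 26.2 and 25.9, and WT replicate 1 was at -15.7, within the -19.5 to -7.1 of the *Hif1a* KO libraries. The counts of members, the sums and the calls below are therefore given with and without it, and the plot of fold changes shows every tested member both ways. The 7 B-cell markers summed to 3008 to 3868 FPKM in WT and 3006 to 4031 FPKM in *Hif1a* KO libraries, and the 6 T-cell markers to 212, 133 and 126 FPKM in WT and 206, 217.5 and 220.4 FPKM in *Hif1a* KO. Nearly all of the T-cell sum came from *Cd2* (80.05, 36.1 and 35.2 FPKM in WT and 67.9, 83.2 and 82.9 FPKM in *Hif1a* KO) and *Lck* (131, 96.2 and 90.1 FPKM in WT and 137, 133 and 136.5 FPKM in *Hif1a* KO), while the T-cell receptor genes *Cd3d*, *Cd3e* and *Cd3g* did not exceed 0.902 FPKM. The 6 plasma cell markers summed to 1281, 834 and 791 FPKM in the WT libraries and to 1216, 902 and 1581 FPKM in the *Hif1a* KO libraries, with *Tnfrsf17* at most at 0.179 FPKM. The 11 macrophage markers summed to 273 to 396 FPKM in WT and 256 to 294 FPKM in *Hif1a* KO libraries, and *Lyz2* was at 6.18, 58.2 and 26.2 FPKM in WT against 0.5996, 2.23 and 3.70 FPKM in *Hif1a* KO. *Fcer1g*, at 151, 131 and 125 FPKM in WT and 140, 115 and 176 FPKM in *Hif1a* KO, was not lower. Neither was *Itgam*, which was at most at 0.236 FPKM, while the remaining macrophage markers were lower in *Hif1a* KO on average. The 6 neutrophil markers summed to 38.4 FPKM in WT replicate 1 and to at most 0.267 FPKM elsewhere, and 3 of them, with *S100a9* at 19.9 FPKM the highest, were at 0 outside that library. The 5 erythroid markers summed to 3.05, 16.2 and 13.4 FPKM in WT and 2.91 to 4.72 FPKM in *Hif1a* KO, and the 8 proliferation genes to 1313, 1622 and 1608 FPKM in WT and 1285 to 1489 FPKM in *Hif1a* KO. The 6 dendritic cell markers summed to 16.8, 16.2 and 17.9 FPKM in WT and 12.95, 12.04 and 12.7 FPKM in *Hif1a* KO, where every library was lower than in WT. The part of these cell types in the results below was not tested, and in bulk samples fewer cells of a type and less RNA per cell cannot be told apart.

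Most of the 35 genes were somewhat higher in *Hif1a* KO than in WT B cells, but none passed the test with all 6 libraries at equal weight. Genes with a mean of at least 0.5 FPKM over the libraries were tested, which were 33 of the members and 13312 genes in all. *Acacb* and *Me1* were below that level. On the log2(FPKM + 1) scale, 30 of the 33 were higher and 3 were lower in *Hif1a* KO, their median log2 fold change being 0.16, against -0.028 over all genes tested, and median-ratio scaling made this 32 higher and 1 lower. By limma, 0 of 33 had a Benjamini-Hochberg adjusted p under 0.05, as did 0% of all genes tested (0 of 13312), and the smallest adjusted p of a member was 0.626. With library weights, lowest for WT replicate 1 (0.238), 10 members were called, all higher, beside 541 genes higher and 908 lower over all genes tested. Without weights, an unadjusted p under 0.05 was reached by 5 members, all higher in *Hif1a* KO, while among all genes 2.48% reached it in that direction (330 genes) and 4.50% in the other (599 genes). In 5 members (15.2%) every *Hif1a* KO library was above every WT library, against 4.06% of all genes, and in 0 members was every *Hif1a* KO library below, against 6.03%. Leaving out WT replicate 1 raised the count at an unadjusted p under 0.05 to 18. Leaving out WT replicate 2, WT replicate 3 or *Hif1a* KO replicate 3 gave 0, and leaving out *Hif1a* KO replicate 1 or 2 gave 3 and 1. The number of members that did not overlap was 24 when WT replicate 1 and 10 when *Hif1a* KO replicate 1 was left out. For these counts with a library left out, the shares over all genes tested were not counted. Groups of fewer libraries separate more easily, and without WT replicate 1 the calls over all genes also rose, from 0 to 1251. These counts are therefore no result about the members alone.

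Most cholesterol and sterol sensing members, and some fatty acid enzymes, shared a pattern over the 6 libraries. WT replicates 2 and 3 were low, *Hif1a* KO replicate 3 was high, and WT replicate 1 lay among the *Hif1a* KO libraries, as the map of members by library shows. The lowest library was WT replicate 2 or 3 in 26 of the 33 tested members (78.8%), against 29.6% of all genes tested. The highest library was *Hif1a* KO replicate 3 in 25 members (75.8%), against 19.1% of all genes. WT replicate 1 was above both other WT libraries in 27 members (81.8%), against 33.3% of all genes. Among the 9 tested fatty acid enzymes, WT replicate 1 was above both in 4 (44.4%) and *Hif1a* KO replicate 3 was highest in 3 (33.3%). The median gap between WT replicate 1 and the mean of the other WT libraries was 0.23 on the log2 scale over the members and -0.059 over all genes. WT replicate 1, *Hif1a* KO replicate 1 and *Hif1a* KO replicate 3 had the highest sums of plasma cell markers. *Prdm1*, the regulator of plasma cell differentiation, was at 40.0 FPKM in WT replicate 1, 17.1 and 16.7 FPKM in the other WT libraries and 41.4, 29.2 and 55.9 FPKM in the *Hif1a* KO libraries. *Xbp1*, *Jchain* and *Mzb1* had the same highest libraries, but *Sdc1* was lowest in *Hif1a* KO replicate 1 (2.68 FPKM) and *Tnfrsf17* highest in *Hif1a* KO replicate 2 (0.179 FPKM). *Hif1a* KO replicate 2 had a lower plasma cell sum than *Hif1a* KO replicate 1, but a higher sum of cholesterol enzymes (723 against 696 FPKM). The part of plasma cell differentiation in the members' pattern was not tested.

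**Figure D1:**
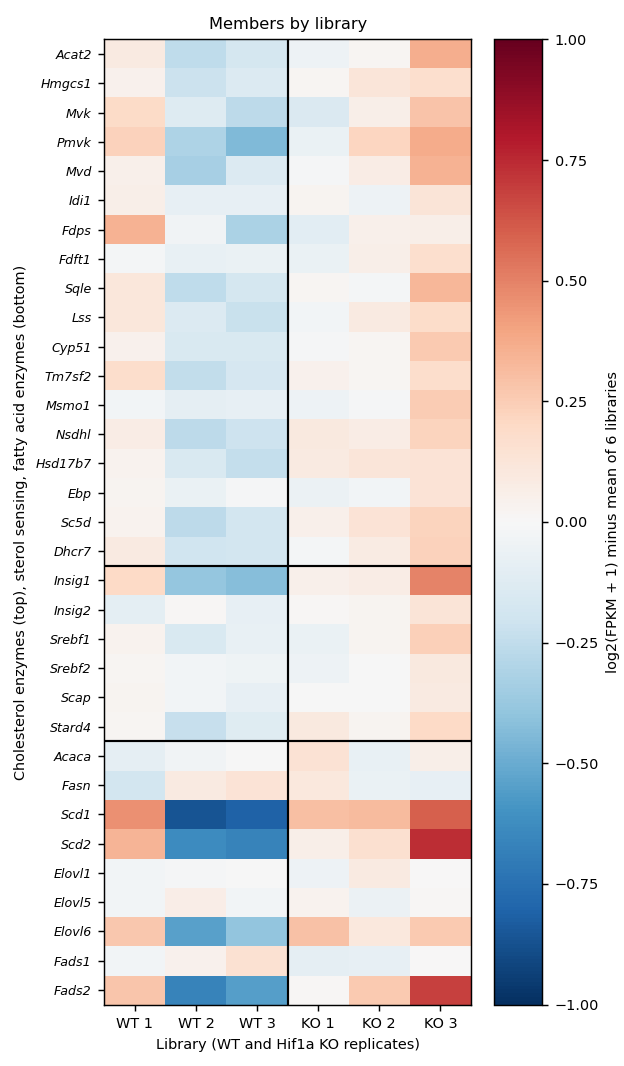
Each row is 1 of the 33 tested members, grouped by role, and each column is 1 library; the colour gives the log2(FPKM + 1) value minus its mean over the 6 libraries. WT replicates 2 and 3 are blue in most rows down to Insig1, and in Scd1, Scd2, Elovl6 and Fads2, while WT replicate 1 resembles the KO columns; the lowest library was WT replicate 2 or 3 in 26 rows.

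The enzymes of cholesterol synthesis all leaned the same way, by small amounts that did not pass the test. All 18 had a log2 fold change above 0 in *Hif1a* KO with the 6 libraries, from 0.002 for *Fdps* to 0.35 for *Pmvk*, with a median of 0.18, though *Fdps* turned to -0.014 under voom on the recovered reads, and *Fdps* and *Ebp* turned with some libraries left out. Their FPKM summed to 735, 620 and 628 in WT (661 ± 63.9, SD, n = 3) and to 696, 723 and 829 in *Hif1a* KO (749.6 ± 70.1, SD, n = 3), so the *Hif1a* KO mean was 13.4% above the WT mean. The groups overlapped because WT replicate 1 was above 2 of the *Hif1a* KO libraries, and the exact permutation test gave a two-sided p = 0.3, where 3 against 3 libraries cannot go below 0.1. Against WT replicates 2 and 3 alone the *Hif1a* KO mean was 20.1% higher. Without *Hif1a* KO replicate 3, the ratio of the *Hif1a* KO to the WT mean fell from 1.13 to 1.07 and the median log2 fold change from 0.18 to 0.11. In all 18 enzymes the lowest library was WT replicate 2 or 3 and WT replicate 1 was above both, and in 16 the highest library was *Hif1a* KO replicate 3.

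The pathway opens with *Acat2*, which joins acetyl-CoA units, and *Hmgcs1*, which makes HMG-CoA from the product. *Hmgcs1* was at 57.6, 48.1 and 50.9 FPKM in the WT libraries and 56.7, 60.9 and 62.9 FPKM in the *Hif1a* KO libraries. Its log2 fold change was 0.20 (SE 0.084, unadjusted p = 0.0464, adjusted p = 0.626, limma), and the groups overlapped only between WT replicate 1 and *Hif1a* KO replicate 1. *Acat2* averaged 32.7 ± 4.34 FPKM in WT and 38.5 ± 6.31 FPKM in *Hif1a* KO (SD, n = 3). The kinases *Mvk* and *Pmvk* and the decarboxylase *Mvd* turn mevalonate into isopentenyl pyrophosphate. *Pmvk* had the largest log2 fold change of the 18, 0.35 (SE 0.19), at 28.6 ± 7.64 FPKM in WT and 36.1 ± 5.57 FPKM in *Hif1a* KO (SD, n = 3), and *Mvd* followed with 0.28 (SE 0.13). Neither change exceeded the spread between replicates by the test (adjusted p = 0.626 for both, limma). *Mvk*, at 19.97 ± 3.45 FPKM in WT and 22.02 ± 3.47 FPKM in *Hif1a* KO, and the isomerase *Idi1*, at 75.4 ± 4.35 and 79.1 ± 5.08 FPKM, differed by less than 1 SD of the WT libraries.

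*Fdps*, which makes farnesyl pyrophosphate, was listed far below its neighbours in the pathway, at 2.88, 1.98 and 1.44 FPKM in WT and 1.84, 2.16 and 2.17 FPKM in *Hif1a* KO, on 44 to 126 reads per library. In the annotation, 26.7% of its exon bases are shared with *Gm43738* on the same strand, which was at 0 in every library, so its level is uncertain. Its mean was 2.3% lower in *Hif1a* KO on the FPKM scale, while its log2 fold change was 0.002. *Fdft1*, the squalene synthase, was at 18.98 ± 0.412 FPKM in WT and 20.6 ± 1.78 FPKM in *Hif1a* KO (SD, n = 3).

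*Sqle*, the squalene epoxidase and a rate-setting, oxygen-using step, was at 40.7, 31.4 and 33.1 FPKM in WT and 38.1, 37.01 and 47.5 FPKM in *Hif1a* KO. WT replicate 1 was above all but the highest *Hif1a* KO library, and the log2 fold change of 0.22 (SE 0.13, adjusted p = 0.639) did not pass the test. *Lss*, which closes the rings of lanosterol, averaged 17.3 ± 2.27 and 19.4 ± 1.52 FPKM in WT and *Hif1a* KO (SD, n = 3). *Cyp51*, the lanosterol demethylase, had the highest mean FPKM of the cholesterol enzymes, with 146, 128 and 128 FPKM in WT and 141, 144 and 171 FPKM in *Hif1a* KO. Its groups overlapped, with WT replicate 1 above 2 of the *Hif1a* KO libraries (log2 fold change 0.18, SE 0.10, adjusted p = 0.626).

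Among the later steps, 3 enzymes did not overlap between groups. *Nsdhl* (chrX:72918557-72958514), a sterol dehydrogenase, was at 17.4, 13.6 and 14.2 FPKM in WT and 17.8, 17.5 and 19.5 FPKM in *Hif1a* KO. The lowest *Hif1a* KO library lay just above WT replicate 1, and fell below it under median-ratio scaling. The log2 fold change was 0.27 (SE 0.11, unadjusted p = 0.0399). *Hsd17b7* (chr1:169949535-169969241), the sterol ketone reductase whose promoter is printed above, was at 29.5, 25.7 and 24.2 FPKM in WT and 30.6, 31.3 and 31.7 FPKM in *Hif1a* KO. The *Hif1a* KO libraries were close together, and the log2 fold change was 0.24 (SE 0.084, unadjusted p = 0.0268). *Sc5d* (chr9:42251595-42264256), an oxygen-using sterol desaturase that also has a printed promoter, was at 28.7, 23.2 and 24.5 FPKM in WT and 29.04, 30.96 and 32.8 FPKM in *Hif1a* KO. It had the smallest unadjusted p of all members (0.0236), with a log2 fold change of 0.28 (SE 0.10). All 3 had an adjusted p of 0.626 by limma over all genes tested. The other later steps overlapped. *Tm7sf2*, a sterol reductase that shares 12.1% of its exon bases with *Vps51* on the same strand, averaged 14.5 ± 2.49 FPKM in WT and 16.1 ± 1.0 FPKM in *Hif1a* KO, and the oxygen-using *Msmo1* 52.7 ± 1.15 and 58.03 ± 6.98 FPKM (SD, n = 3). *Ebp*, a sterol isomerase, had 37.6 ± 1.29 and 38.7 ± 2.99 FPKM, and *Dhcr7*, a reductase of the final steps, 40.6 ± 4.82 and 46.5 ± 4.15 FPKM.

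**Figure D2:**
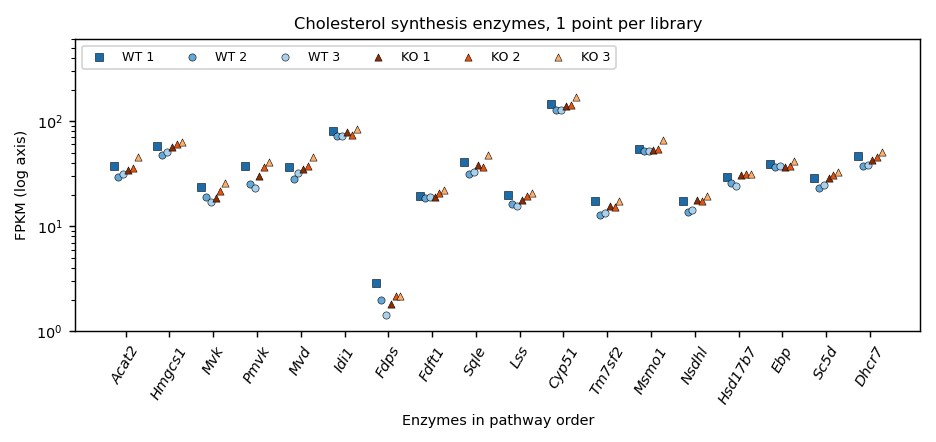
FPKM on a log axis of the 18 cholesterol synthesis enzymes in pathway order, with 1 point per library (squares, WT replicate 1; circles, WT replicates 2 and 3; triangles, Hif1a KO). The lowest point is WT replicate 2 or 3 in all 18 genes, and only Nsdhl, Hsd17b7 and Sc5d have all KO points above all WT points; Fdps lies far below the others, at 1.44 to 2.88 FPKM.

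The sterol sensing genes were higher in *Hif1a* KO in 6 of 6 cases with the 6 libraries, with log2 fold changes from 0.032 to 0.41 and a median of 0.12, and in all 6 the highest library was *Hif1a* KO replicate 3. *Insig1*, itself a target of SREBP, was at 77.6, 51.2 and 49.8 FPKM in WT and 69.98, 70.9 and 95.6 FPKM in *Hif1a* KO. WT replicate 1 was above 2 of the *Hif1a* KO libraries, and both other WT libraries were below all of them. The log2 fold change of 0.41 (SE 0.20) had an adjusted p of 0.626 and was 0.62 (SE 0.14) without WT replicate 1, where the adjusted p was 0.0498, and its range over all alternatives was 0.0421 to 1. *Insig2*, the related retention protein that is not driven by SREBP in the same way, was at 35.99, 39.1 and 36.4 FPKM in WT and 39.1, 39.4 and 42.5 FPKM in *Hif1a* KO. Its groups did not overlap, but WT replicate 2 and *Hif1a* KO replicate 1 were nearly equal (log2 fold change 0.12, SE 0.066, adjusted p = 0.630). The ratio of *Insig1* to *Insig2* FPKM was 2.16, 1.31 and 1.37 in WT and 1.79, 1.80 and 2.25 in *Hif1a* KO.

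Both SREBP genes are members. *Srebf2*, which encodes the SREBP with most weight on cholesterol genes and had the highest mean FPKM of this group, was at 105, 102 and 100.4 FPKM in WT and 99.9, 103 and 111 FPKM in *Hif1a* KO. *Srebf1*, whose product has more weight on fatty acid genes, was at 76.1, 66.8 and 70.5 FPKM in WT and 70.9, 75.7 and 88.1 FPKM in *Hif1a* KO. For both, the groups overlapped, with log2 fold changes of 0.032 (SE 0.062) and 0.13 (SE 0.10), and the sign for *Srebf2* turned without *Hif1a* KO replicate 3 (-0.010). *Scap* averaged 71.4 ± 2.74 FPKM in WT and 74.2 ± 2.90 FPKM in *Hif1a* KO (SD, n = 3). *Stard4*, which carries cholesterol between membranes and is an SREBP target, was at 61.98, 51.96 and 56.1 FPKM in WT and 65.3, 62.3 and 70.4 FPKM in *Hif1a* KO. Every *Hif1a* KO library was above every WT library (log2 fold change 0.22, SE 0.085, unadjusted p = 0.0374, adjusted p = 0.626, limma), though the groups overlapped under median-ratio scaling. The summed FPKM of the 6 genes was 398 ± 28.1 in WT and 442 ± 37.2 in *Hif1a* KO (SD, n = 3), a difference of 11.1% (exact permutation test, two-sided p = 0.3), and 15.8% against WT replicates 2 and 3 alone.

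The fatty acid enzymes split into genes with the largest differences of all members and genes that hardly differed. Of the 9 tested, 6 were higher and 3 lower in *Hif1a* KO, their median log2 fold change was 0.085, and 0 reached an unadjusted p under 0.05. At the start of the pathway, *Acaca*, the acetyl-CoA carboxylase of the cytosol and its rate-setting enzyme, was at 15.8, 16.5 and 16.8 FPKM in WT and 18.7, 15.98 and 17.6 FPKM in *Hif1a* KO, with overlapping groups (log2 fold change 0.085, SE 0.079). *Acacb*, its mitochondrial relative that limits fatty acid oxidation, was at 0.0481, 0.174 and 0.253 FPKM in WT and 0.167, 0.197 and 0.1599 FPKM in *Hif1a* KO, on 9 to 34 reads, and was not tested. *Fasn*, which builds palmitate, was at 57.8, 69.8 and 72.4 FPKM in WT and 70.5, 62.6 and 62.02 FPKM in *Hif1a* KO. Here WT replicate 1 was the lowest library, and the log2 fold change was -0.03 (SE 0.10), with a sign that turned under median-ratio scaling (0.004). *Me1*, the malic enzyme that supplies NADPH, was at 0.0817, 0.655 and 0.469 FPKM in WT and 0.0405, 0.118 and 0.0679 FPKM in *Hif1a* KO. These values rest on 6, 40 and 24 reads in WT and 2, 8 and 4 reads in *Hif1a* KO, WT replicate 1 lay within the *Hif1a* KO range, and the gene was not tested.

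*Scd1* had the largest log2 fold change of the members with all 6 libraries, and *Scd2* and *Fads2* were next, with nearly equal values whose order changed between alternatives. The stearoyl-CoA desaturases *Scd1* and *Scd2* introduce the first double bond into saturated fatty acids with molecular oxygen. *Scd1* (chr19:44394455-44407879) was at 105, 41.3 and 43.1 FPKM in WT and 93.7, 95.2 and 115 FPKM in *Hif1a* KO. WT replicate 1 lay among the *Hif1a* KO libraries, far above the other WT libraries, so the means of 63.1 ± 36.3 and 101 ± 12.1 FPKM (SD, n = 3) hide a split within WT. The log2 fold change was 0.81 (SE 0.34, unadjusted p = 0.0505, adjusted p = 0.626). Its neighbour *Scd2* (chr19:44293674-44306864), on the opposite strand, was at 79.4, 40.01 and 39.04 FPKM in WT and 64.96, 69.97 and 105 FPKM in *Hif1a* KO, with the same libraries low (log2 fold change 0.64, SE 0.30, adjusted p = 0.626). The ratio of *Scd1* to *Scd2* FPKM was 1.32, 1.03 and 1.10 in WT and 1.44, 1.36 and 1.10 in *Hif1a* KO, and that of *Scd1* to *Fasn* 1.82, 0.592 and 0.595 in WT and 1.33, 1.52 and 1.86 in *Hif1a* KO.

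Within the elongases and the polyunsaturated fatty acid desaturases, 1 member of each family had the low values of *Scd1* in WT replicates 2 and 3. *Elovl6*, which elongates palmitate to stearate, was at 5.95, 2.96 and 3.38 FPKM in WT and 6.06, 5.19 and 5.91 FPKM in *Hif1a* KO (log2 fold change 0.44, SE 0.21). *Elovl5*, which acts on polyunsaturated chains, was at 58.5, 62.5 and 58.5 FPKM in WT and 61.2, 57.1 and 60.2 FPKM in *Hif1a* KO, and *Elovl1*, which makes very long chains, at 63.6, 64.4 and 64.6 and 62.8, 69.2 and 65.2 FPKM. Neither of these differed by more than its standard error, with log2 fold changes of -0.007 (SE 0.061) and 0.031 (SE 0.06). The sign for *Elovl5* turned under median-ratio scaling (0.027) and quantile normalization (0.007). *Fads2* was at 8.80, 4.09 and 4.52 FPKM in WT and 7.15, 8.71 and 12.01 FPKM in *Hif1a* KO, a log2 fold change of 0.63 (SE 0.28). *Fads1*, which acts after it in the same route, was at 14.4, 15.2 and 16.4 FPKM in WT and 13.7, 13.8 and 14.7 FPKM in *Hif1a* KO, a log2 fold change of -0.11 (SE 0.076). The ratio of *Fads2* to *Fads1* FPKM was 0.613, 0.270 and 0.276 in WT and 0.523, 0.629 and 0.817 in *Hif1a* KO, so WT replicate 1 lay among the *Hif1a* KO libraries in this ratio too. These ratios were chosen after the values were seen, all overlapped between groups, and were not tested. The FPKM of the 11 enzymes summed to 409, 317 and 320 in WT and 399, 398 and 458 in *Hif1a* KO, 20% higher on average (exact permutation test, two-sided p = 0.3), and 31.4% higher than in WT replicates 2 and 3 alone. Most of the difference in mean sums came from *Scd1* (63.1 FPKM in WT and 101 FPKM in *Hif1a* KO) and *Scd2* (52.8 and 79.85 FPKM). The means of *Fasn*, *Elovl5*, *Fads1* and *Me1* were lower in *Hif1a* KO, so the sum does not describe the list as a whole.

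**Figure D3:**
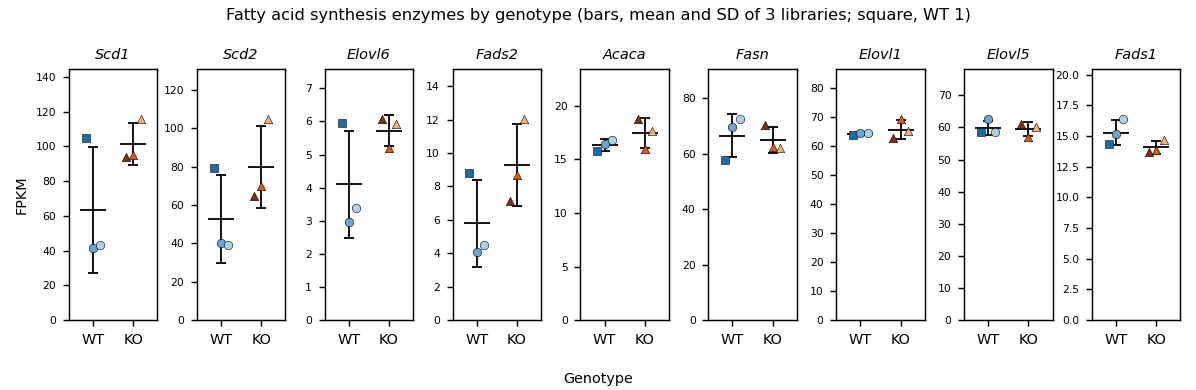
FPKM of the 9 tested fatty acid enzymes, with 1 point per library (square, WT replicate 1; circles, WT replicates 2 and 3; triangles, Hif1a KO) and the mean and SD of each group as bars, on axes that start at 0. In Scd1, Scd2, Elovl6 and Fads2 WT replicate 1 lies with the KO points and the other WT points lie well below, while Acaca, Fasn, Elovl1, Elovl5 and Fads1 show no such gap.

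Without WT replicate 1, 8 of the 33 members had an adjusted p under 0.05 by limma, all higher in *Hif1a* KO (24.2%). In that fit 3.64% of all genes were called higher (485 genes) and 5.75% lower (766 genes). The 8 members were *Nsdhl*, *Hsd17b7*, *Sc5d*, *Insig1*, *Scd1*, *Scd2*, *Elovl6* and *Fads2*. *Scd1* had a log2 fold change of 1.24 (SE 0.10, adjusted p = 0.00429, which ranged from 0.00429 to 1 over all alternatives), followed by *Scd2* at 0.97 (SE 0.20), *Fads2* at 0.93 (SE 0.20) and *Elovl6* at 0.69 (SE 0.10). *Nsdhl*, *Sc5d* and *Hsd17b7* were at 0.37 (SE 0.074), 0.36 (SE 0.073) and 0.31 (SE 0.06). *Pmvk*, at 0.55 (SE 0.13), was not called. In this fit 30 members were higher and 3 lower, the median of the 18 cholesterol enzymes was 0.28, and *Fasn* and *Fads1* were at -0.13 and -0.15, neither of them called. This fit compares 2 WT libraries with 3 *Hif1a* KO libraries. Leaving out any of the other 5 libraries instead gave 0 members called, and the replicate that decides these calls is the one with the neutrophil transcripts described above. The part of these transcripts in the calls was not tested.

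**Figure D4:**
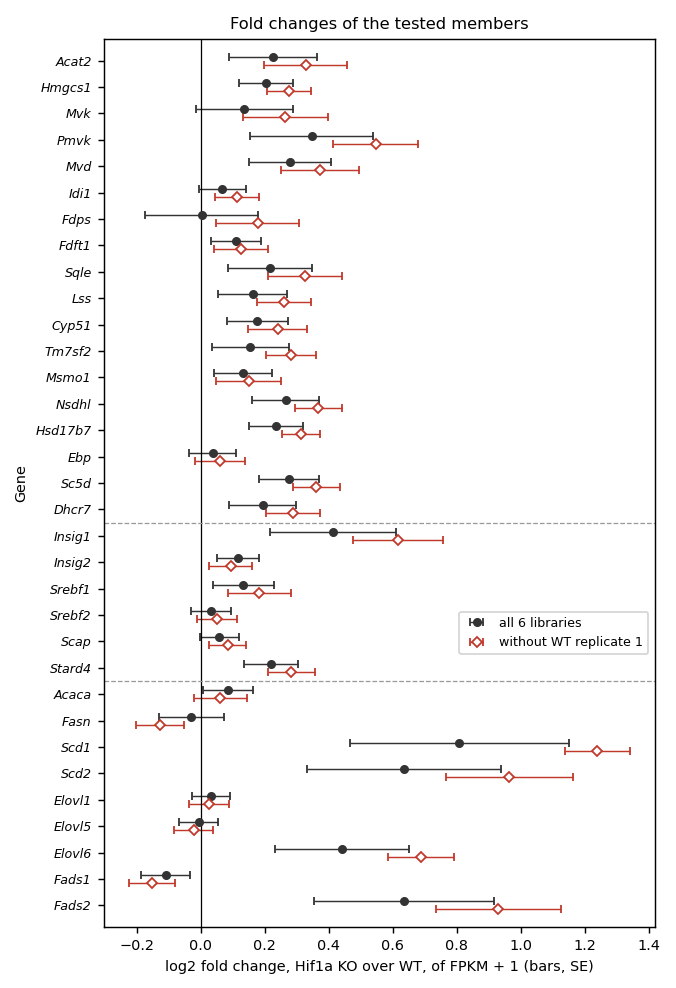
Log2 fold change of FPKM + 1 in Hif1a KO over WT, with its SE, for the 33 tested members with all 6 libraries (filled circles) and without WT replicate 1 (open diamonds); dashed lines separate the 3 roles. Without that library the points move to the right in the cholesterol enzymes and furthest in Scd1, from 0.81 to 1.24, while some fatty acid enzymes, Fasn and Fads1 among them, move to the left.

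Levels can be compared between genes only per length, and the deposited FPKM values used a length that, for 23 of the 35 members, equalled the mean length of the gene's annotated transcripts. Short or partial transcripts in the annotation then raise a gene's FPKM. Rescaled to the longest transcript, the mean level over the 6 libraries was 102 FPKM for *Srebf2*, 82.3 for *Scd1*, 66.3 for *Scd2*, 53.9 for *Cyp51*, 52.4 for *Hmgcs1* and 44.3 for *Insig1*. On the deposited scale the mean was 143 FPKM for *Cyp51*, 104 for *Srebf2*, 82.2 for *Scd1* and 77.3 for *Idi1*. *Cyp51* was thus first of the members on one scale and the fourth on the other. *Fasn* was at 23.4 and *Acaca* at 6.05 FPKM per longest transcript, and *Fdps* at 0.826 FPKM was the lowest of the tested members. Ratios of the FPKM of 1 gene between libraries do not depend on this length. Log2 fold changes of FPKM + 1 depend on it through the pseudocount, mostly in genes of low level.

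Other genes of the same and neighbouring pathways lay close to the background of all genes tested. Of 53 listed genes of acetyl-CoA activation, sterol esterification and transport, SREBP processing, isoprenoid branches, elongation, and acyl-CoA and glycerolipid synthesis, 42 were tested, 16 were higher and 26 lower in *Hif1a* KO, and the median log2 fold change was -0.027, against 5604 higher and 7708 lower and a median of -0.028 over all 13312 genes tested. Without WT replicate 1, 19 were higher and 23 lower. By limma 0 were called, and an unadjusted p under 0.05 was reached by 2 higher and 1 lower. The 3 were *Acsl3*, an acyl-CoA synthetase, at 17.2, 12.03 and 12.9 FPKM in WT and 16.99, 17.8 and 22.4 FPKM in *Hif1a* KO (log2 fold change 0.42, SE 0.16), *Rnf145*, a ubiquitin ligase of sterol sensing, at 66.2 and 77.8 FPKM on average (log2 fold change 0.24, SE 0.09), and *Agpat5*, an acyltransferase, at 4.83 and 3.54 FPKM (log2 fold change -0.36, SE 0.14). All 3 had an adjusted p of 0.626. WT replicate 1 was above both other WT libraries in 18 of the 42 (42.9%), against 27 of the 33 members. In the fit without that library, 2 of the 42 were called higher, *Acsl3* and *Rnf145* (4.8%, against 3.64% of all genes), and 3 lower, *Hacd3*, *Soat2* and *Pgrmc1* (7.1%, against 5.75%), of which the last 3 were named after their values were seen.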

How the data were processed

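Bulk RNA-seq of 6 libraries was used, 3 labelled WT and 3 labelled KO in their titles. Per the labels the cells were splenic B cells, while the study's methods describe sorted follicular B cells. The authors aligned reads to mm10 (GRCm38) with TopHat, counted them per gene with HTSeq and deposited FPKM values, computed from each count and the length of the gene. They tested counts with DESeq, and those counts were not used here. The annotation release, the strand setting and the handling of reads with several alignments are not given in the sources used here, so genes that overlap or have close copies are uncertain. All per-sample columns were used, and no 2 libraries were identical.

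Symbols and coordinates came from GENCODE vM21, which held 46488 of the 46983 gene IDs. Reads per library were recovered from the FPKM values. In genes with 1 annotated transcript, 95.4% to 95.8% of the low values were whole multiples of 1 read within a tolerance of 0.02. All 35 members have several annotated transcripts, so this share does not cover them. At 25.0 M reads, 1 read on 1 kb is 0.040 FPKM, so the depth limits only the lowest members. Genes were tested in R 4.3.3 with limma 3.58.1 (eBayes with a trend) on log2(FPKM + 1), a pseudocount of 1, for genes with a mean of at least 0.5 FPKM, with no covariates and two-sided. Fold changes on that scale are understated for genes of low level. Benjamini-Hochberg adjustment ran over the 13312 genes tested, and a call was an adjusted p under 0.05. Sums were compared by exact permutation tests. Python 3.11.15 with pandas 2.3.3, scipy 1.17.1 and matplotlib 3.10.9 did the remaining steps.

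The members, the other lists, the motifs and the rule for naming genes were chosen with earlier results of these data known. By that rule a member was given in every library where its groups did not overlap, where its unadjusted p was under 0.05, where it had the highest mean FPKM of its role, where it belonged to a family of members, or where it was a rate-setting enzyme (*Sqle*, *Hmgcs1*, *Acaca*, *Fasn*), and of the other pathway genes the 3 of lowest p were named. *Fdps* and *Me1* were given in full after their values were seen. Alternatives were another pseudocount, other filters, median-ratio and quantile scaling, robust eBayes, the replicate number as a block, library weights, voom on the recovered reads and leaving out each library in turn. The study's single-cell and ChIP-seq data were not used here.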

Additional observations from a re-analysis of the deposited data

How the results depend on the processing

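Of 493 values of single members under the alternatives, 459 kept their direction and their side of the threshold, 18 became calls and 16 turned sign, all in 6 members with small changes. *Fasn* turned to 0.004 under median-ratio scaling, *Elovl5* to 0.027 under median-ratio scaling and 0.007 under quantile normalization, and *Fdps* to -0.014 under voom. With a library left out, log2 fold changes ranged from -0.158 to 0.177 for *Fdps*, -0.128 to 0.032 for *Fasn*, -0.028 to 0.024 for *Elovl5*, -0.006 to 0.063 for *Elovl1*, -0.024 to 0.076 for *Ebp* and -0.010 to 0.065 for *Srebf2*. With median-ratio scaling, which moved the median of all genes from -0.028 to 0.002, 32 members were higher and 1 was lower, and 3 members did not overlap between groups. *Nsdhl* and *Stard4* were the ones that came to overlap. The median log2 fold change of the fatty acid enzymes was 0.031 with no filter on low values, 0.058 with a mean of at least 5 FPKM, 0.118 with median-ratio scaling, 0.117 with quantile normalization and 0.060 to 0.144 with a library left out. Library weights, which gave WT replicate 1 a weight of 0.238, led to 1449 genes called (541 higher and 908 lower in *Hif1a* KO), 10 members called and 19 members at an unadjusted p under 0.05. The 10 members were all higher. They were the 8 called without WT replicate 1, with *Hmgcs1* (adjusted p = 0.0483, limma) and *Stard4* (adjusted p = 0.047, limma) in addition. Leaving out 1 library gave 0 to 1251 genes called (1251 when WT replicate 1 and 1 when *Hif1a* KO replicate 1 was left out), 0 to 8 members called, 0 to 18 members at an unadjusted p under 0.05 and 5 to 24 members that did not overlap. The shares of all genes at an unadjusted p under 0.05 or without overlap were not counted for these alternatives. The cause of the changes between alternatives was not tested.

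The libraries of both groups carry the numbers 1 to 3. The deviations of same-numbered libraries from their group means correlated at -0.099, 0.139 and -0.276. With 3 libraries per group and WT replicate 1 far from the other WT libraries, these values cannot decide whether the numbers pair the libraries. With the replicate number as a block, 1 member instead of 5 reached an unadjusted p under 0.05, and 0 members and 0 genes were called by limma. The median-ratio and leave-one-out counts of members that did not overlap were added after seeing the data. With no other alternative was a member called.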

Other observations

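Among the pathway genes that are no members, *Lpin2*, a phosphatidate phosphatase of glycerolipid synthesis, and *Acsl4*, an acyl-CoA synthetase, were the 2 of 42 in which every *Hif1a* KO library was above every WT library (4.8%, against 4.06% of all genes tested), and they were chosen for this after their values were seen. *Lpin2* was at 19.99, 17.3 and 18.4 FPKM in WT and 21.3, 21.1 and 20.7 FPKM in *Hif1a* KO, and *Acsl4* at 15.55, 15.3 and 15.56 FPKM in WT and 18.04, 16.03 and 17.6 FPKM in *Hif1a* KO. *Soat2*, which esterifies cholesterol, was low in WT replicate 1 and in all *Hif1a* KO libraries, at 0.196, 1.88 and 1.26 FPKM in WT and 0.250, 0.258 and 0.383 FPKM in *Hif1a* KO. *Hacd3*, an enzyme of fatty acid elongation, was at 31.7, 56.4 and 49.3 FPKM in WT and 33.4, 33.5 and 30.8 FPKM in *Hif1a* KO. In both genes WT replicates 2 and 3 were the high libraries, the reverse of *Scd1*, and WT replicate 1 lay beside the *Hif1a* KO libraries. Both were also chosen after their values were seen and carry no call with all 6 libraries at equal weight (adjusted p = 0.626 for both, limma).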
